A study of Mus musculus with 2 samples.

Results

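The miR-200 family and its frequent partners miR-203 and miR-205 are microRNAs of epithelial cells, and their level was measured here in a line of mesenchymal origin. The set was taken by name and holds 7 of the 2202 miRNA genes in the deposited tables: Mir200b, Mir200a, Mir429, Mir200c, Mir141, Mir203 and Mir205. All 7 had reads in both libraries, as did 663 of the 2202 genes, although Mir200a had only 2 counts in replicate 2. The samples are 2 small RNA libraries of C2C12, a mouse myoblast line established from injured thigh muscle of the C3H strain and obtained from ATCC. Both libraries belong to 1 group with no treatment named, are numbered as separate biological replicates and hold RNA below 30 nucleotides. The labels do not give the culture stage, sex or age, and no epithelial sample or second condition was analysed here, so levels are described within this line.

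MicroRNAs of this family are cut from hairpin precursors and act by pairing their seed, bases 2 to 8 of the mature strand, with messenger RNAs. In epithelia the miR-200 family represses Zeb1 and Zeb2, transcription factors that shut off epithelial genes such as E-cadherin. Zeb1 and Zeb2 in turn repress both miR-200 loci, a double-negative loop that holds cells in an epithelial or a mesenchymal state. miR-205 also targets Zeb1 and Zeb2, and miR-203 restrains proliferation in differentiating epidermis by targeting p63.

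The family is defined by its seeds, so the mature strands that usually act as guides are printed with bases 2 to 8 in capitals. They are the 3p arms, except for miR-205, whose guide is the 5p arm. The sequences are those of RefSeq on GRCm38.p6, where all 7 genes were matched.
miR-200b-3p: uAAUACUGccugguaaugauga
miR-200c-3p: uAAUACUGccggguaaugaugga
miR-429-3p: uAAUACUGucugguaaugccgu
miR-200a-3p: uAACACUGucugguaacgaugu
miR-141-3p: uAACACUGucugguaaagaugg
miR-203-3p: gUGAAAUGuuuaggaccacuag
miR-205-5p: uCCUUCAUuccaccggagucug

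The 5 miR-200 strands fall into 2 seed groups, which the 2 loci share. The first 3 strands have the seed AAUACUG and the next 2 have AACACUG. With positions counted from 1 at the 5′ end, the change from the seed of miR-200b to that of miR-200a or miR-141 is U4C. Outside the seed, miR-200b and miR-200c differed by U11G and A22G over the 22 bases compared, and miR-200a and miR-141 by C17A and U22G. None of the other genes among 1738 mature sequences in the RefSeq table carried the seed of a guide strand printed here. The members' counts therefore hold all counts of these seeds among the miRNAs of that table, along with any reads of the other arms, whose seeds differ.

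The 2 miR-200 loci lie on different chromosomes (mm10, GENCODE M21). Mir200b (chromosome 4, 156055681 to 156055750), Mir200a (156054896 to 156054985) and Mir429 (156053905 to 156053987) lie in that order on the minus strand within 1846 bases. Each overlaps an intron of the protein-coding gene Ttll10. Mir200b and Mir200a also lie in an intron, and Mir429 in an exon, of the noncoding transcript Gm13648. Mir200c (chromosome 6, 124718322 to 124718390, minus strand) and Mir141 (124717914 to 124717985) are separated by 336 bases, and both lie in an intron of Gm15884, annotated as an antisense gene. Mir141 also overlaps an exon of Gm29008. Mir203 (chromosome 12, 112130880 to 112130955, plus strand) overlaps no other gene of M21 and starts 3320 bases beyond the end of Aspg. Mir205 (chromosome 1, 193507463 to 193507530, minus strand) lies in an exon of the long noncoding RNA 4631405K08Rik.

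Counts were assigned to whole hairpins, so both arms of a precursor add to 1 value. The hairpin of Mir200c, the most abundant family member, is printed with both mature arms in capitals to show what a count covers.
Mir200c hairpin: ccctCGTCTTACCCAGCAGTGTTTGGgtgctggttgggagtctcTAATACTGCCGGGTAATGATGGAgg
No member shared a stretch of 20 or more bases with another of the 2202 hairpins. The longest shared stretch was 17 bases, between Mir200a and Mir141, followed by 14 bases both between Mir200b and Mir200c and between Mir205 and Mir6397, a gene outside the set. Some abundant miRNAs of these cells, such as Mir23a, do have such near-identical copies. How many mismatches the counting allowed is not given in the sources used here, so a few reads could be counted on another gene, within the set or outside it. Only the 2202 miRNA hairpins were searched for shared stretches, not the rest of the genome.

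Same-strand counts on miRNA genes numbered 27661907 in replicate 1 and 15025315 in replicate 2. Levels are counts per 1000000 of these counts (CPM), and each read stands for 1 short RNA, so they carry no length scaling. The share of Mir21a in these totals was 23.1% for replicate 1 but 53.5% for replicate 2, so other genes had less of the second total to share. Intervals are exact (Clopper-Pearson) 95% intervals of a library's share and cover counting error only, since PCR copies without molecular identifiers are not independent molecules.

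Epithelial miRNAs were present at a low residual level. The 7 genes together had 673 counts in replicate 1, or 24.3 CPM (interval 22.5 to 26.2). Replicate 2 had 285 counts, or 19.0 CPM (16.8 to 21.3). The mean was 21.6 ± 3.79 CPM (SD, n = 2). The 5 miR-200 genes made up 343 and 127 of these counts, which is 12.4 CPM (11.1 to 13.8) and 8.45 CPM (7.05 to 10.1), with a mean of 10.4 ± 2.79 CPM (SD, n = 2). This residual level corresponds to 1 count in 80647 in replicate 1 and 1 in 118310 in replicate 2.

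A gene was counted as detected where neither library was below 1 CPM. By this rule 4 of 7 members were detected, Mir205, Mir200c, Mir141 and Mir203, against 14.5% of all genes (320 of 2202). The gene table includes many unnamed predictions, and 1398 of its genes had no read in either library. The detected members lay low among the detected genes, whose median was 43.9 CPM. Mir205, the highest member, had 214 genes above it in mean CPM and 106 detected genes below it.

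**Figure D1:**
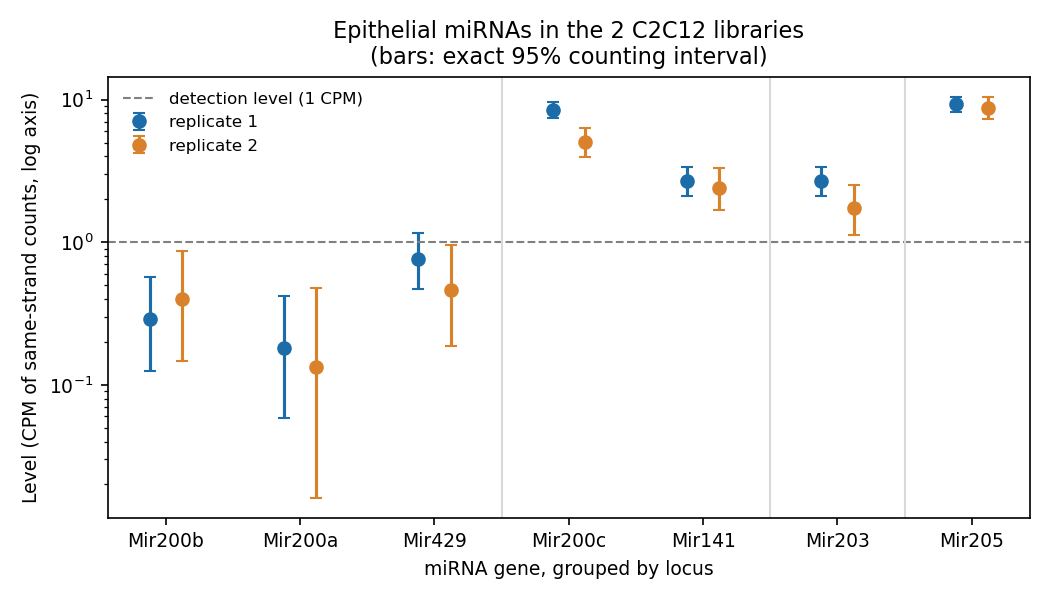
Level of each member in CPM on a log axis for replicate 1 (blue) and replicate 2 (orange), with exact 95% counting intervals and the detection level of 1 CPM as a dashed line. Mir200c, Mir141, Mir203 and Mir205 lie above the line in both libraries and the 3 genes of the Mir200b/Mir200a/Mir429 locus below it.

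The Mir200c/Mir141 locus carried most of what remained of the family. Mir200c had 235 counts in replicate 1 and 76 in replicate 2, which is 8.50 CPM (7.44 to 9.65) and 5.06 CPM (3.99 to 6.33). Its value was higher in replicate 1, and the 2 intervals did not overlap. That difference depends on scaling by library totals, as set out below. Mir141, the second gene of the locus, had 74 and 36 counts, or 2.68 CPM (2.10 to 3.36) and 2.40 CPM (1.68 to 3.32). Its intervals overlapped over most of their width. Together the pair had 309 and 112 counts, 11.2 and 7.45 CPM, with a mean of 9.31 ± 2.63 CPM (SD, n = 2).

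The Mir200b/Mir200a/Mir429 locus was near the limit of what the depth can measure. Mir429 had 21 and 7 counts, or 0.759 CPM (0.470 to 1.16) and 0.466 CPM (0.187 to 0.960). Mir200b had 8 and 6 counts, or 0.289 CPM (0.125 to 0.570) and 0.399 CPM (0.147 to 0.869). Mir200a had 5 and 2 counts, or 0.181 CPM (0.0587 to 0.422) and 0.133 CPM (0.0161 to 0.481). No gene of this locus reached 1 CPM in either library, and the intervals of the libraries overlapped for each of the 3 genes. For comparison, a count of 0 would allow 3 counts, a floor of 0.108 CPM for replicate 1 and 0.200 CPM for replicate 2. The locus summed to 34 and 15 counts, 1.23 and 0.998 CPM, with a mean of 1.11 ± 0.163 CPM (SD, n = 2).

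The difference between the loci was far larger than the difference between the libraries. Mir200c and Mir141 made up 90.1% of the miR-200 counts in replicate 1 (309 of 343, interval 86.4 to 93.0) and 88.2% in replicate 2 (112 of 127, 81.3 to 93.2). Their locus thus had 9.09 times the counts of the other in replicate 1 (6.37 to 13.4) and 7.47 times in replicate 2 (4.34 to 13.8). Both intervals exclude equal counts of the loci, but they cover counting error only. Whether the different sequences were captured equally well in the libraries was not tested. The guide strands of Mir200b and Mir200c differ at 2 of 22 bases, as do those of Mir200a and Mir141. Whether reads of 1 locus were counted on the other was not tested either. A few such reads would matter for the low counts of Mir200b and Mir200a. The 2 libraries did not differ detectably in the split between the loci (two-sided Fisher's exact test on the counts of 2 libraries, p = 0.610, adjusted p = 0.610 over 4 splits). A split of counts within a library does not depend on how libraries are scaled. With the 2 genes of one locus against 3 of the other, the lower gene of the first, Mir141, also lay above the highest gene of the second, Mir429, in both libraries.

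**Figure D2:**
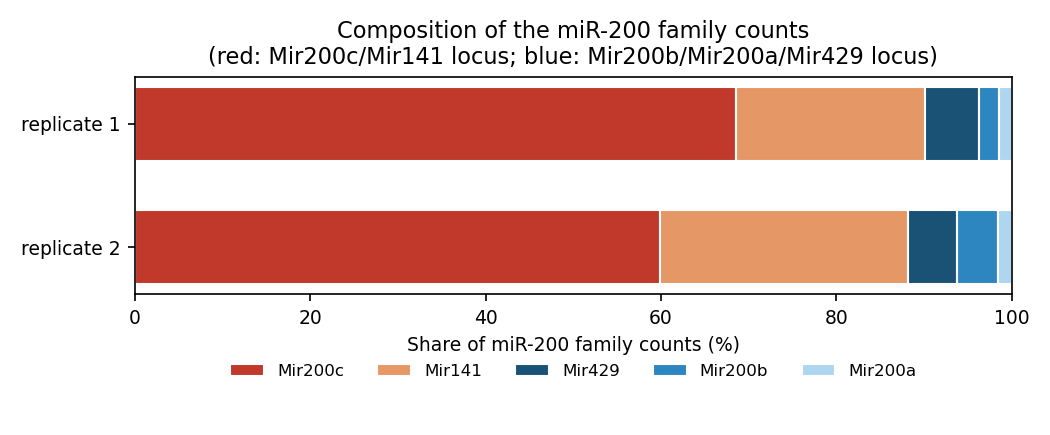
Share of each gene in the miR-200 family counts, in percent, for 343 counts of replicate 1 and 127 of replicate 2. The red bars, Mir200c and Mir141, end at 90.1% and 88.2%, and the 3 blue bars of the other locus fill the rest.

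Genes of 1 locus had unequal counts too, although neighbouring hairpins can be cut from 1 primary transcript. Mir200c made up 76.1% of the counts of its locus in replicate 1 (235 of 309, interval 70.9 to 80.7) and 67.9% in replicate 2 (76 of 112, 58.4 to 76.4). Mir200c thus exceeded Mir141 by 3.18 and 2.11 times, and equal counts lie outside both intervals. The libraries did not differ detectably in this share (Fisher's exact test, p = 0.103, adjusted p = 0.199). In the other locus Mir429 had 2.63 times the counts of Mir200b in replicate 1 (1.12 to 6.85) and 1.17 times in replicate 2 (0.336 to 4.20), so their order was not settled in replicate 2.

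Genes were also summed by the seed of their guide strand, and these sums include reads of both arms. The AAUACUG group (Mir200b, Mir200c and Mir429) had 9.54 and 5.92 CPM, a mean of 7.73 ± 2.56 (SD, n = 2). The AACACUG group (Mir200a and Mir141) had 2.86 and 2.53 CPM, a mean of 2.69 ± 0.231 (SD, n = 2). The first group made up 77.0% of the family in replicate 1 (72.1 to 81.3) and 70.1% in replicate 2 (61.3 to 77.9), with no detectable difference between the libraries (Fisher's exact test, p = 0.149, adjusted p = 0.199). Each seed group drew most of its counts from chromosome 6, through Mir200c in the first and Mir141 in the second.

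Mir205 and Mir203 are not related to the miR-200 family by seed or position. Mir205, a marker of basal and squamous epithelia, had 256 and 132 counts, or 9.25 CPM (8.16 to 10.5) and 8.79 CPM (7.35 to 10.4). Scaled by totals, its 2 values were close, with a mean of 9.02 ± 0.332 CPM (SD, n = 2). Mir203, known from the upper layers of the epidermis, had 74 and 26 counts, or 2.68 CPM (2.10 to 3.36) and 1.73 CPM (1.13 to 2.54). By totals it was higher in replicate 1, with overlapping intervals, and averaged 2.20 ± 0.668 CPM (SD, n = 2). Mir205 alone had 42.7% of the counts it shared with the 5 miR-200 genes in replicate 1 (256 of 599, interval 38.7 to 46.8) and 51.0% in replicate 2 (132 of 259, 44.7 to 57.2). That shift had p = 0.0302 by Fisher's exact test and did not pass adjustment over the 4 splits (adjusted p = 0.121).

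By mean CPM the order was Mir205, Mir200c, Mir141, Mir203, Mir429, Mir200b and Mir200a. The ranges of the 2 libraries overlapped for 1 pair of neighbours, Mir141 and Mir203, which had 74 counts each in replicate 1. Within a library, counting error also blurred other neighbours. Mir205 had 1.09 times the counts of Mir200c in replicate 1 (0.909 to 1.31) but 1.74 times in replicate 2 (1.30 to 2.34). Mir203 had 3.52 times the counts of Mir429 in replicate 1 (2.15 to 6.03) and 3.71 times in replicate 2 (1.57 to 10.1), so the step from the 4 detected genes to the other 3 stood in both libraries. Mir200b and Mir200a could not be ordered, with ratios of 1.60 (0.462 to 6.22) and 3.0 (0.536 to 30.4).

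**Figure D3:**
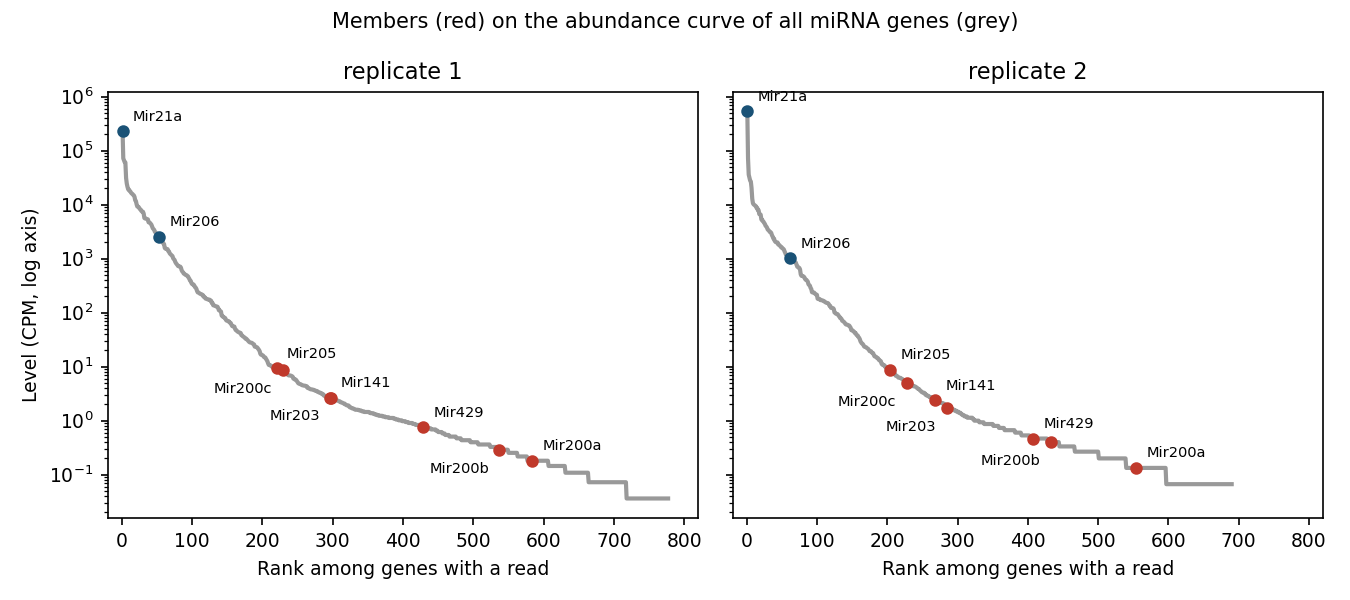
Level in CPM on a log axis against rank for all miRNA genes with a read, 1 panel per library, with the members in red and Mir21a and Mir206 in blue for scale. Mir205 and Mir200c hold ranks 220 and 229 in replicate 1 and 204 and 228 in replicate 2, and Mir200a lies on the shallow tail at ranks 577 and 540.

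In rank, Mir205 stood at 220 and 204 of the 2202 genes, Mir200c at 229 and 228, Mir141 at 296 and 268, and Mir203 at 296 and 283. Mir429 stood at 427 and 403, Mir200b at 534 and 428, and Mir200a at 577 and 540. Genes with the most similar level were found by the distance of log2(CPM + 1) over the 2 libraries, which with 2 samples is a match of level and not a shared pattern. For Mir205 they were Mir6240, Mir181b-1 and Mir138-1, the first with 262 and 136 counts. For Mir200c they were Mir6935, Mir378c and Mir743, the first with 226 and 79 counts. For Mir203 they were Mir1964, Mir3091 and Mir7018. Mir429 matched Mir3572 exactly, at 21 and 7 counts, and next Mir6399 and Mir763.

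The members were next compared between the libraries. Scaling by the trimmed mean of log ratios (TMM) put every log2 ratio 0.90 further toward replicate 2 than scaling by totals. Of the 7 members, 6 had at least 10 counts over both libraries and were tested, and Mir200a was not. Two-sided exact binomial tests with Benjamini-Hochberg adjustment over 556 genes called 2 members higher in replicate 2 and none lower. Over all tested genes 41.5% were called, 24.6% higher and 16.9% lower in replicate 2. These tests compare 2 libraries, not conditions, and any spread between cultures counts as a difference.

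Mir205 had a TMM-scaled log2 ratio of replicate 2 over replicate 1 of 0.83 (counting SE 0.15, adjusted p = 1.00e-06, exact binomial test). Mir141 had 0.75 (counting SE 0.29, adjusted p = 0.0390, exact binomial test). Mir141 passed narrowly, and with DESeq2 size factors it had an adjusted p of 0.0565 by the same exact binomial test. Mir200c, with 0.16 (counting SE 0.19), Mir203, with 0.29 (0.33), and Mir429, with 0.26 (0.61), did not pass. Mir200b had the largest ratio of the 6, 1.39, but with a counting SE of 0.75 and an adjusted p of 0.200 (exact binomial test). The median over the 6 tested members was 0.52, against 0.09 over all 556 tested genes.

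The directions depend on the scaling. By library totals Mir205 had a log2 ratio of -0.07 and Mir141 one of -0.15, neither of which passed. Mir200c was then called lower in replicate 2, at -0.74 (adjusted p = 0.000122, exact binomial test). The median of all tested genes was -0.81 on that scale.

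**Figure D4:**
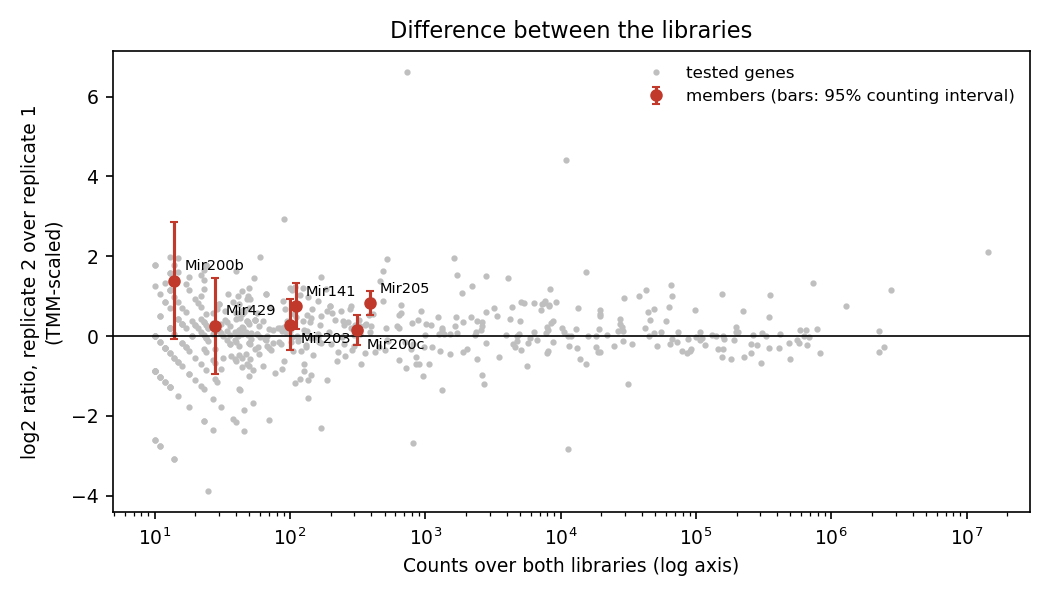
TMM-scaled log2 ratio of replicate 2 over replicate 1 against the counts over both libraries (log axis) for 556 tested genes (grey) and the 6 tested members (red, bars: 95% counting interval). Mir205 at 0.83 and Mir141 at 0.75 have bars clear of 0, and the bars of the other 4 members cross it.

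By median level, the members were lower by orders of magnitude than a chosen list of mesenchymal and fibroblast miRNAs, though not lower than each of its genes. The list of 17 mesenchymal and fibroblast miRNAs had a median gene level of 5732 CPM, against 2.20 CPM for the 7 members, and 15 of its genes were detected. In mean CPM 2 of its genes lay below Mir205, Mir199a-1 at 1.77 CPM and Mir10b at 0.296 CPM, and 3 below the sum of the 7 members. Near-identical copies exist for 3 genes of the list, Mir199a-1 among them, which makes their counts uncertain. The highest genes of the list were Mir21a, Mir22 and Mir143. Mir21a, a miRNA abundant in fibroblasts and many proliferating cells, had 9477 times the summed counts of the 7 members in replicate 1 and 28214 times in replicate 2. Of the list's 17 tested genes 9 were called higher and 5 lower in replicate 2, against 24.6% and 16.9% of all 556 tested genes. The test covers counting error only, so genes with more counts are called at smaller differences. Mir206, specific to skeletal muscle and the marker that fits the labelled cell type, had 2559 and 1028 CPM, 206 and 122 times the miR-200 sum. Of the 11 muscle genes 4 were detected and 4 had no read, with a median of 0.579 CPM. Of those 4, Mir1a-1, Mir133a-1 and Mir133a-2 have near-identical copies, and reads mapping to several places were left out of the gene counts, so a count of 0 sets no limit on these 3. Such copies exist for 5 of the 11 muscle genes, so the number detected and the median are uncertain too. Of the 6 tested muscle genes none was called higher and 3 lower in replicate 2, against the same 24.6% and 16.9% over all tested genes.

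Most other miRNAs linked to epithelia were more abundant than the members. Of 12 such genes 9 were detected, with a median of 366 CPM. Mir34c, a target of p53, led with 21367 and 12908 CPM, then Mir34a with 2813 and 1478. Mir182, of a cluster known from sensory epithelia, had 1116 and 912 CPM, or 90.0 and 108 times the miR-200 sum. These genes are also expressed outside epithelia. The endocrine and epithelial Mir375 had 1.30 and 0.865 CPM, below Mir203 in both libraries. Of the 12 tested genes 6 were called higher and 2 lower in replicate 2, against 24.6% and 16.9% of all tested genes.

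Of 16 miRNAs reported to repress Zeb or Snai genes by other seeds all were detected, with a median of 647 CPM. They summed to 45457 and 31857 CPM, 1868 and 1680 times the 7 members, led by Mir34c, Mir30a with 8067 and 8814 CPM, and Mir30d with 3516 and 3938 CPM. Of these 16 genes 9 were called higher and 5 lower in replicate 2, against 24.6% and 16.9% of all tested genes. The 13 miRNAs reported to promote a mesenchymal state had a median of 1431 CPM and 9 detected genes, led by Mir21a, Mir23a and Mir221, with 6 called higher and 3 lower of 10 tested. Near-identical copies make the level of Mir23a uncertain. Such copies exist for 8 of these 13 genes and 6 of the 16 above, so the levels of both lists are uncertain too. Among other overlaps between lists, Mir34a, Mir34b and Mir34c are also on the epithelium-linked list and Mir21a, Mir221, Mir222 and Mir10b also on the mesenchymal list.

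**Figure D5:**
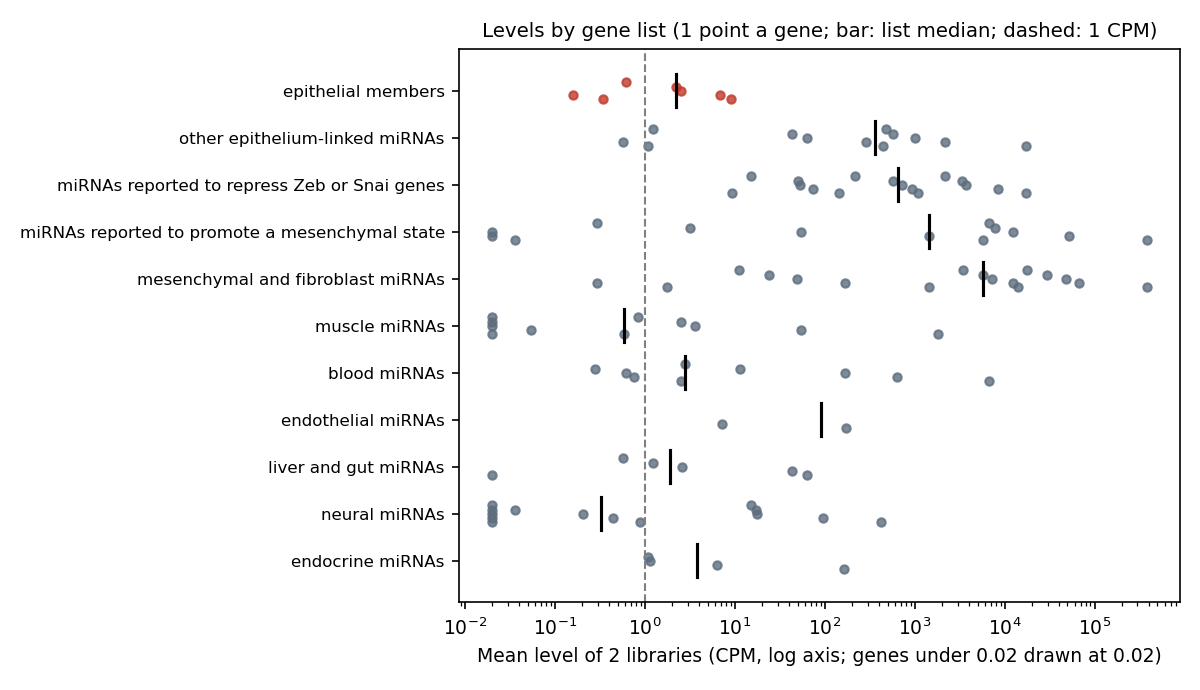
Mean level of the 2 libraries in CPM on a log axis for each gene of 11 lists, with list medians as black bars and 1 CPM as a dashed line. The 7 members (red) lie between 0.157 and 9.02 CPM, while the medians of the mesenchymal, Zeb- or Snai-repressing and other epithelium-linked lists lie between 366 and 5732 CPM.

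Markers of other cell types had reads too, and a few single genes carried most of each list's sum. Median gene levels were 2.76 CPM for the blood list, 90.4 for the endothelial, 1.90 for the liver and gut, 0.325 for the neural and 3.77 for the endocrine list, against 2.20 CPM for the members. Near-identical copies exist for 3 of the blood, 2 of the liver and gut, 10 of the neural and 2 of the endocrine genes. The members have none, so the comparison with these 4 medians is uncertain. The 9 blood genes ranged from Mir144 at 0.281 CPM to Mir155 at 6684 CPM on average, with 6 detected and a summed level of 9545 and 5455 CPM. Mir155 is also made outside blood and is on the list of miRNAs reported to promote a mesenchymal state as well. The next 2 were Mir181a-1 at 630 CPM and the largely blood-restricted Mir142 at 168 CPM. The erythroid Mir451a had 0.749 CPM and the myeloid Mir223 0.616 CPM. The endothelial Mir126a and Mir126b, both detected, summed to 222 and 139 CPM. The 6 liver and gut genes summed to 111 and 113 CPM with 3 detected, led by Mir192, Mir194-2 and the hepatocyte marker Mir122, at 64.0, 43.2 and 2.58 CPM. Mir192, Mir194-1, Mir194-2 and Mir215 are on the epithelium-linked list as well, as is the endocrine Mir375. Of 14 neural genes 5 were detected and 5 had no read, and the sum was 723 and 415 CPM, led by Mir132, Mir212 and Mir128-1. The 5 neural genes with no read, Mir9-1, Mir9-2 and the 3 Mir124a genes, all have near-identical copies, so their counts set no limit either. The 4 endocrine genes summed to 188 and 157 CPM with 3 detected, led by Mir7-1, Mir7-2 and Mir7b. Called higher and lower in replicate 2 were 5 and 0 of 9 tested blood genes, 1 and 0 of 2 endothelial, 2 and 0 of 5 liver and gut, 3 and 2 of 7 neural, and 2 and 0 of 4 endocrine genes. Over all tested genes the shares were 24.6% and 16.9%. Whether RNA from other cells supplied the members' reads was not tested. In these bulk libraries a low level in all cells and a higher level in few cells cannot be told apart.

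Nearly all reads of the members lay on the members' own strand. Mir200b, Mir429, Mir200c, Mir203 and Mir205 had no read on the opposite strand in either library. For Mir205 a count of 0 allows an opposite-strand share of up to 1.17% and 2.27% in the respective libraries. Mir141 had 2 opposite-strand reads in each library, beside 74 and 36 on its own strand. Mir200a differed, with 4 opposite-strand reads beside 5 in replicate 1 and 2 beside 2 in replicate 2. Over the 7 members 0.884% of the reads were on the opposite strand in replicate 1 (0.325 to 1.91) and 1.38% in replicate 2 (0.378 to 3.51). Over all genes the shares were 2.96% and 1.60%. Unstranded counts over all genes were 26819199 and 14781064, below the same-strand totals although they cover both strands. Most opposite-strand counts over all genes were thus same-strand reads of a gene overlapping on the other strand. The shares over all genes are therefore no background of stray reads for the members.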

How the data were processed

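The authors deposited, for each of 2 C2C12 small RNA libraries, a table of raw read counts for 2202 miRNA genes on either strand, the gene's strand and the opposite strand. Per the deposited readme files the build is mm10 and the annotation GENCODE M21, and per the labels' protocols adapters were trimmed. For the aligner, the counter and the mismatch limit, nothing is given in the sources used here. The 4 rows that name no gene held 49.7% of replicate 1 and 38.8% of replicate 2 and were left out. They include multi-mapping reads (33.4% and 22.8%).

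Same-strand counts were used, with totals of 27661907 and 15025315. All gene identifiers matched M21 symbols. TMM factors came from edgeR 4.0.16 (R 4.3.3) over genes with at least 10 counts over both libraries. With 1 library on each side no quasi-likelihood test exists, so pairs of counts were tested by exact binomial tests in scipy 1.17.1, adjusted over 556 genes at a threshold of 0.05. A prior count of 0.5 was added in log2 ratios. The test was checked on simulated data with counting error only and known scaling. That check cannot cover spread between cultures or the choice of scaling. Alternatives used DESeq2 1.42.0 size factors, library totals, other denominators, filters, detection levels and unstranded counts.

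The members, lists and tests were chosen with earlier results of these data known. The text names all members, up to 3 highest genes of each list and the 3 genes nearest in level to the top member of each locus. Mir375, Mir451a, Mir223, Mir144, Mir199a-1 and Mir10b were named after their values were seen.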

Additional observations from a re-analysis of the deposited data

Results flagged for a closer look

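Reads on the strand opposite to a member were not used for its level. Mir200a had 4 such reads in replicate 1, above the 3 counts that a count of 0 allows, and 2 in replicate 2. They made up 44.4% of its reads in replicate 1 (exact 95% interval 13.7 to 78.8) and 50% in replicate 2 (6.76 to 93.2). The shares over all genes, 2.96% and 1.60%, came mostly from genes overlapping on opposite strands and are no background for Mir200a. No control library was analysed here, and the origin of these reads was not tested. Counted without strand, Mir200a had 9 and 4 reads.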

How the results depend on the processing

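The Mir200c/Mir141 share of the miR-200 counts was 89.1% on average, 88.1% with unstranded counts, and 88.2 to 90.1% when either library was left out. Absolute levels followed the denominator. Without Mir21a in the total, the 7 members summed to 36.2 CPM, the miR-200 family to 17.1, the Mir200c/Mir141 locus to 15.3 and the Mir200b/Mir200a/Mir429 locus to 1.87. Per 1000000 of all reads of the table these were 11.9, 5.70, 5.09 and 0.614. Unstranded counts moved the Mir200b/Mir200a/Mir429 locus to 1.28 CPM, since they include the opposite-strand reads of Mir200a. Leaving out either library gave 19.0 to 24.3 CPM for the members and 8.45 to 12.4 CPM for the family. Detection fell from 4 members to 2 at 5 CPM and to 0 at 10 CPM, and was 4 without either library.

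Mir141 and Mir205 were the 2 members called between the libraries. Mir205 was the 1 called with DESeq2 size factors, with a minimum of 1 count, and with TMM factors from all genes, an alternative added after the data were seen. By library totals neither was called, and the 1 member called was Mir200c, lower in replicate 2. The cause was not tested. Over all genes 137 were called higher and 94 lower in replicate 2, and 26 higher and 304 lower by library totals. Of 556 tested genes 231 were called, and 217 to 330 under the alternatives. No paired analysis was possible because there is 1 group. Depth limits the Mir200b/Mir200a/Mir429 locus most, with 2 to 21 counts a gene.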
